A study of Homo sapiens with 6 samples.

Results

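Genes of serine uptake into mitochondria, serine synthesis and serine-derived folate metabolism were followed in Rh30 cells with and without knockdown of DDX5. They are SFXN1, SFXN2, SFXN3, SHMT1, SHMT2, MTHFD1, MTHFD2, PHGDH, PSAT1 and PSPH, taken by name, 10 of the 35580 genes to which the transcripts of the tables could be joined. SFXN1 was picked because its level differed between these same libraries, so its values are given as a description with no test. The other 9 were picked by their role. Rh30 is a cell line of alveolar rhabdomyosarcoma, a tumour of the skeletal muscle lineage, and all libraries come from it. The line carries the PAX3-FOXO1 gene fusion, so the controls carry it too. Polyadenylated RNA of 3 control libraries and 3 libraries labelled siDDX5 was sequenced, and the study's text calls the 3 of a group biological replicates. DDX5 is a DEAD-box RNA helicase. The sequence, dose and duration of the siRNA, and what the control cells received, are not given in the sources used here.

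Serine feeds the folate cycle, in which a carbon unit taken from serine is carried by tetrahydrofolate and used to make purines, thymidylate and methionine. Cells make serine from a glycolytic intermediate by the enzymes PHGDH, PSAT1 and PSPH, in that order, or import it. Sideroflexins are membrane proteins of mitochondria, and SFXN1 is known to carry serine into them. There SHMT2 splits serine into glycine and a carbon unit, MTHFD2 oxidises that unit, and formate made from it leaves for the cytosol, where MTHFD1 returns it to folate. SHMT1 is the cytosolic counterpart of SHMT2. Growing tumour cells are known to rely on this route.

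The libraries held 18202402 to 26156858 estimated counts, with every siDDX5 library below every control library, so a count of 3 corresponded to 0.115 to 0.165 CPM, the count scaled to a common library total. DDX5 itself stood at 1352, 1434 and 1137 CPM in control replicates 1 to 3 and at 549.4, 504.5 and 395.9 CPM in the siDDX5 libraries, a log2 fold change of -1.44 (edgeR, adjusted p = 0.0106). That call was lost on the TPM scale, with an adjusted p of 0.0667 on length-scaled TPM in edgeR, and without control replicate 1, siDDX5 replicate 1 or siDDX5 replicate 2, with an adjusted p of at most 0.0955 in edgeR, while the groups overlapped in neither CPM nor TPM. The genes fixed as markers of the rhabdomyosarcoma and myoblast state, MYOD1, MYOG, DES, CHRNA1, FGFR4, MYCN and PAX3, were all present, with control means from 26.6 to 464.6 CPM. Of the markers fixed for other cell types, EPCAM had 2 to 6 counts per library and PTPRC a mean of 1.99 CPM in the control and 1.23 CPM in the siDDX5 libraries. PECAM1 and COL1A1 had control means of 11.9 and 17.9 CPM. In RNA from a whole culture, fewer cells of a kind and less RNA per cell cannot be told apart.

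SFXN1 (ENSG00000164466.12, GRCh38 chr5:175477062-175529742, plus strand) was about doubled in the knockdown libraries. It stood at 69.84, 70.27 and 73.95 CPM in the control libraries and at 139.2, 159.8 and 149.4 CPM in the siDDX5 libraries. All siDDX5 values lay above all control values, and the lowest of them was far above the highest control. The means were 71.4 ± 2.26 CPM and 149.5 ± 10.3 CPM (SD, n = 3 each), which is a log2 fold change of 1.07 with a standard error of 0.10 from edgeR. The size of the difference depended on the scale. In TPM, a unit that also divides each transcript's count by its length, SFXN1 stood at 66.83, 70.46 and 74.18 in the control and at 114.4, 106.5 and 105.7 in the siDDX5 libraries, a ratio of 1.54. On counts rebuilt from length-scaled TPM the log2 fold change was 0.68, and on log2(TPM + 1) with limma it was 0.62. The groups did not overlap on either scale.

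**Figure D1:**
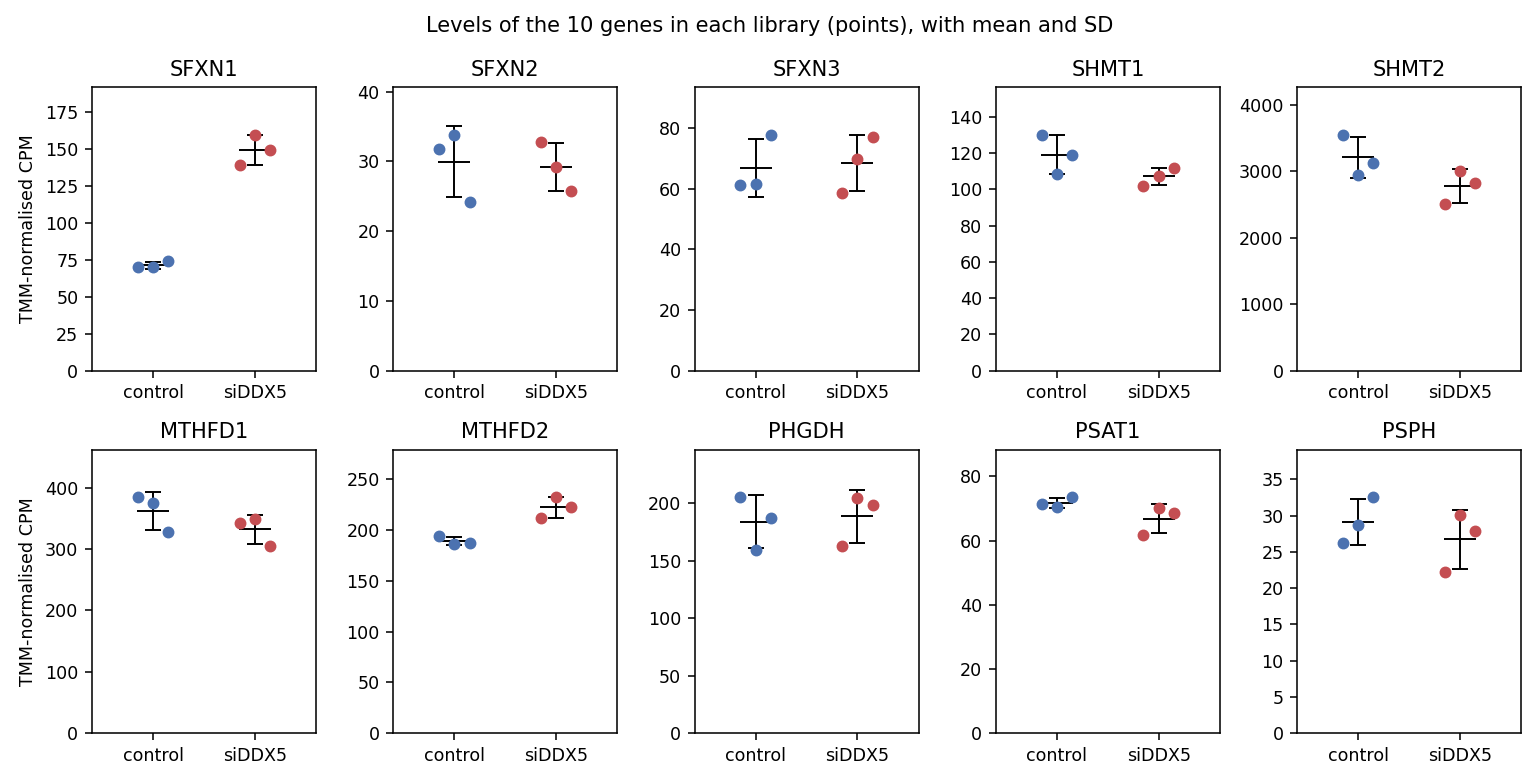
TMM-normalised CPM (vertical axes, each from 0) of the 10 genes in each of the 3 control and 3 siDDX5 libraries (points), with the mean and SD of each group. SFXN1 lies between 139.2 and 159.8 CPM in the siDDX5 libraries against at most 73.95 CPM in the control, and the other 9 genes lie close together in both groups.

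Most of the SFXN1 difference was in a single long transcript. ENST00000321442.10, a protein-coding transcript of 4066 bases in 11 exons, stood at 25.3, 24.7 and 27.0 TPM in the control and at 58.6, 58.4 and 60.7 TPM in the siDDX5 libraries. It held 78.5% ± 1.4 of the gene's counts in the control and 89.1% ± 0.837 in the siDDX5 libraries (SD, n = 3 each). By TPM, where its length counts against it, the share was 36.5% ± 1.39 and 54.5% ± 3.12. All the other SFXN1 transcripts together stood at 41.5, 45.7 and 47.1 TPM in the control and at 55.8, 48.1 and 45.0 TPM in the siDDX5 libraries, so those groups overlapped. Among them, ENST00000502393.5, a protein-coding model of only 637 bases, was at 9.21, 15.8 and 17.3 TPM against 20.2, 19.5 and 19.1 TPM. ENST00000507823.5, a model annotated for nonsense-mediated decay, made up 9.09% ± 0.817 of the counts in the control and 3.81% ± 0.595 in the siDDX5 libraries, while its own level overlapped between groups at 3.85, 4.65 and 4.70 TPM against 3.19, 4.31 and 3.71 TPM. Short and partial models such as these rest on reads that the authors' quantifier divided between overlapping transcripts, and that uncertainty is not part of the SD.

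**Figure D2:**
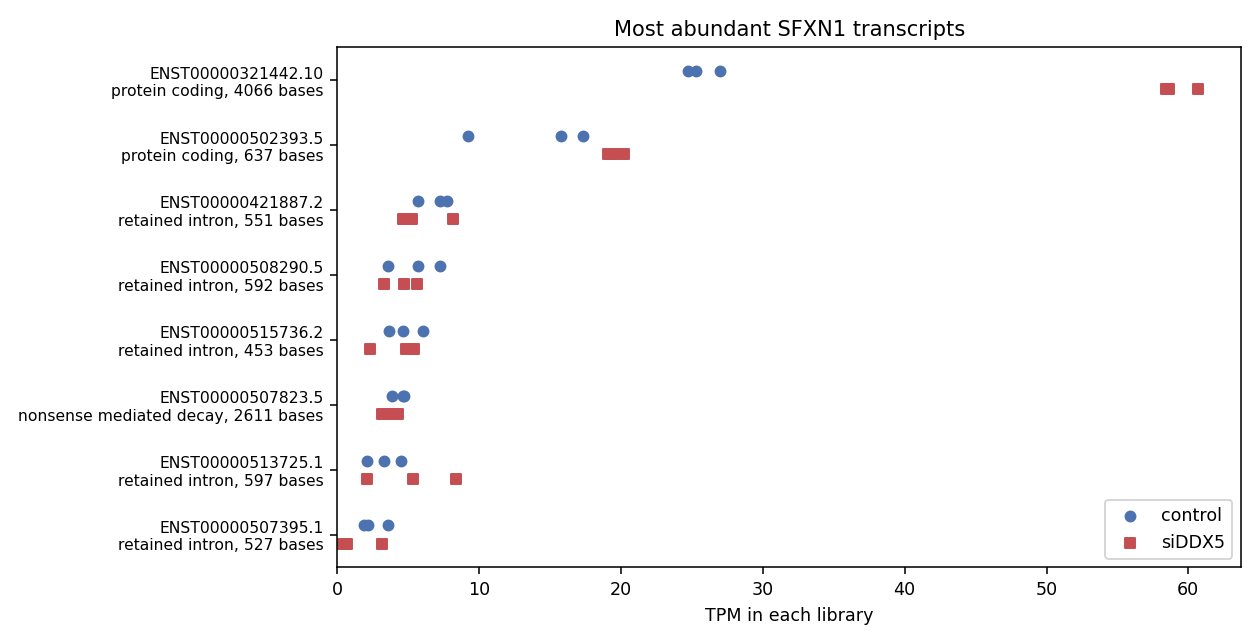
TPM (horizontal axis) of the most abundant SFXN1 transcripts in each control (circles) and siDDX5 (squares) library, with the annotated type and length of each transcript. ENST00000321442.10 separates the groups, at no more than 27.0 TPM in the control and no less than 58.4 TPM in the siDDX5 libraries.

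The 3′ UTR of SFXN1 holds a match to the seed of miR-26, a family of small RNAs whose genes lie in introns of the CTDSP phosphatase genes. The family is shown because CTDSP2, which hosts a copy, lay lower in the siDDX5 libraries of the same comparison, and it was picked after that was seen. CTDSP2 was at 2282, 1887 and 2061 CPM in the control and at 957.9, 851.2 and 955.2 CPM in the siDDX5 libraries, with no overlap. The other hosts overlapped between groups, with means of 31.7 ± 7.84 and 30.3 ± 4.91 CPM for CTDSP1 and of 34.3 ± 1.97 and 34.7 ± 0.464 CPM for CTDSPL. CTDSP2 hosts MIR26A2 (chr12:57824658-57824679, minus strand), CTDSPL hosts MIR26A1 (chr3:37969413-37969434) and CTDSP1 hosts MIR26B (chr2:218402657-218402677), each given at its mature 5p sequence in RefSeq on GRCh38.p14. Mature miRNAs were not measured here, and the part of miR-26 in any value was not tested. The mature sequences from RefSeq, 5′ to 3′ with the seed (bases 2 to 8) in capitals, are identical in the seed.
hsa-miR-26a-5p: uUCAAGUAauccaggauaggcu
hsa-miR-26b-5p: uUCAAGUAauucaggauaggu

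The DNA letters that pair with this seed are TACTTGA. They were searched on the strand of the transcript in the 3′ UTR of each gene's most abundant coding transcript, in the annotation of GENCODE 29. TACTTGA followed by A, or the overlapping word ACTTGAA alone, were counted as further kinds of match. Of the 10 genes, SFXN1 alone had the 8-base word TACTTGAA. Among the others, SFXN3 and MTHFD2 had TACTTGA, PSAT1 had ACTTGAA, and SHMT1, SHMT2, MTHFD1, PHGDH and PSPH had none of them. The matched letters are in capitals in the surrounding sequence, read 5′ to 3′ on the plus strand of GRCh38.
SFXN1, chr5:175527697-175527726, exon 11 of 11: acaatgaatttTACTTGAAtattgtatgtt
SFXN3, chr10:101040280-101040308, exon 12 of 12: ccccaccacccTACTTGAcagcgtgggca
MTHFD2, chr2:74215956-74215984, exon 8: aatctgtaaaaTACTTGAggcagggatag
PSAT1, chr9:78329273-78329301, exon 9: ccttaattctgACTTGAActggaagcatt

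The SFXN1 match begins at base 974 of a 3′ UTR of 3008 bases, in the last exon that the long transcript contains. GENCODE 29 holds an earlier version of that transcript, so this position refers to the annotation. The word TACTTGAA was found in 617 of 12839 tested genes with a 3′ UTR (4.81%), and either shorter word without it in 2102 (16.37%). The median log2 fold change was 0.065 for genes with TACTTGAA, 0.028 for those with a shorter word and 0.000 for those with neither, against 0.006 for all of them. Genes whose siDDX5 libraries all lay above the control were 19.4%, 13.6% and 8.28% of these classes, against 9.68% of all, and genes with all siDDX5 libraries below were 6.32%, 8.9% and 9.34%, against 9.12%. In the fit without the block, 2 genes with TACTTGAA were called higher and 0 lower. With a shorter word these were 4 and 4, with neither 2 and 11, and among all 12839 they were 8 and 15. The class with TACTTGAA includes SFXN1, here and in the fit with the block. SFXN1 was picked for its difference between these same libraries, so it adds no support to the values of its class. In the fit with the replicate block, 41 genes with TACTTGAA were called higher and 11 lower, 52 and 37 with a shorter word, and 73 and 150 with neither, against 1.29% higher and 1.54% lower of all 12839. The length of the 3′ UTR moved with the class, with medians of 2798, 2596 and 728 bases, and its part was not tested.

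**Figure D3:**
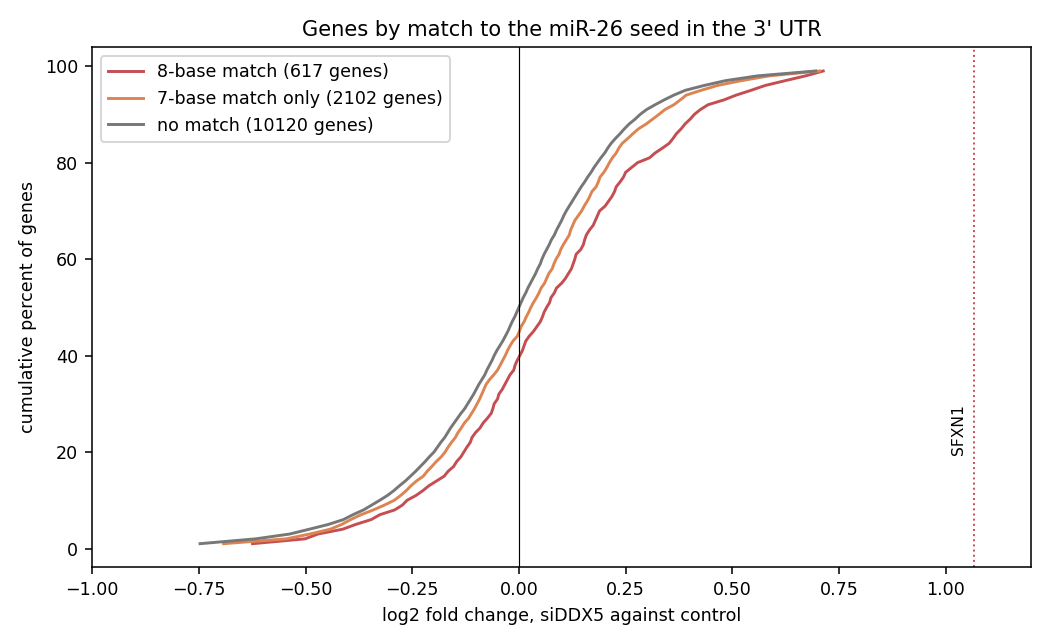
Cumulative percent of genes (vertical axis) by log2 fold change of siDDX5 against control (horizontal axis), for genes with TACTTGAA, with a shorter match only, or with neither in the 3′ UTR. The curve of the 617 genes with TACTTGAA runs to the right of the others, with a median of 0.065 against 0.000 for genes with neither.

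SFXN2 and SFXN3, from the same family as SFXN1, overlapped between groups. SFXN3 (chr10:101031234-101041244, plus strand), which is known to carry serine as well, stood at 61.17, 61.58 and 77.91 CPM in the control and at 58.77, 69.68 and 76.95 CPM in the siDDX5 libraries. SFXN2 (chr10:102714538-102743492, plus strand), a paralog in the mitochondrial membrane, stood at 31.85, 33.86 and 24.21 CPM against 32.74, 29.13 and 25.74 CPM. For both genes the siDDX5 values fell inside the control range or just below it. The log2 fold change was 0.03 for SFXN3, its standard error 0.14, and -0.04 for SFXN2, its standard error 0.16, and the p-values of edgeR's quasi-likelihood test, Benjamini-Hochberg adjusted over all genes, were 0.955 and 0.956. The sign of both turned under several other settings, so no direction is given for them. SFXN4 and SFXN5, the remaining members of the family, had log2 fold changes of 0.02 and -0.13 and did not pass the test either.

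By TPM the make-up of the family was different in the knockdown. SFXN1 accounted for 32.2%, 32.3% and 32.5% of the summed TPM of SFXN1 to SFXN5 in the control libraries and for 47.3%, 45.0% and 45.1% in the siDDX5 libraries. The values of a group lay close together and the groups did not overlap. The ratio of SFXN1 to SFXN3 was 2.02, 2.29 and 1.61 in the control and 3.72, 3.31 and 2.86 in the siDDX5 libraries. Both measures contain the level of SFXN1 and are therefore a description.

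A pair of SFXN3 transcripts with nearly the same sequence span lay apart in opposite directions, while their sum overlapped between groups. ENST00000393459.5 stood at 13.1, 11.1 and 9.63 TPM in the control and at 6.44, 4.77 and 1.47e-06 TPM in the siDDX5 libraries. ENST00000224807.9 went the other way, at 5.47, 7.17 and 12.8 TPM against 13.8, 16.7 and 24.2 TPM. In the annotation they share every splice site and differ by 5 bases at the 5′ end and 4 at the 3′ end. Their sum was 18.6, 18.2 and 22.5 TPM in the control and 20.2, 21.5 and 24.2 TPM in the siDDX5 libraries. The part of the division of reads between them was not tested.

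The enzymes of serine synthesis were measured well above the floor, and none passed the test. PHGDH, which opens the route (chr1:119648411-119744226, plus strand), stood at 205.1, 159.1 and 187.3 CPM in the control and at 162.3, 204.1 and 198.5 CPM in the siDDX5 libraries. Its log2 fold change of 0.03 had a standard error of 0.13, its adjusted p was 0.95 in edgeR, and its sign turned under other settings. PSAT1, the aminotransferase of the middle step (chr9:78297143-78330093, plus strand), stood at 71.43, 70.55 and 73.58 CPM against 61.88, 70.28 and 68.48 CPM. Its siDDX5 values all lay below the control, the highest by only a little. The log2 fold change of PSAT1 was -0.10 (edgeR, standard error 0.10, adjusted p = 0.743). PSPH, the phosphatase that releases serine (chr7:56011051-56051604, minus strand), overlapped between groups, at 26.17, 28.64 and 32.54 CPM against 22.22, 30.05 and 27.83 CPM. Its log2 fold change was -0.13 (edgeR, standard error 0.15, adjusted p = 0.795). The summed TPM of the 3 enzymes was 334, 298 and 323 in the control and 290, 280 and 317 in the siDDX5 libraries, with overlap.

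SHMT2, the mitochondrial enzyme that splits serine (chr12:57229327-57234935, plus strand), was by far the most abundant of the 10 genes. It stood at 3555, 2950 and 3128 CPM in the control and at 2502, 3001 and 2831 CPM in the siDDX5 libraries, and siDDX5 replicate 2 lay within the control range. The log2 fold change was -0.21 (edgeR, standard error 0.13, adjusted p = 0.572). In TPM the siDDX5 libraries lay below the control without overlap, at 2899, 2355 and 2510 in the control and at 2128, 2003 and 2134 in the siDDX5 libraries. By its mean TPM in the control, SHMT2 ranked 36 among 19948 protein-coding genes. SHMT1, the cytosolic enzyme (chr17:18327860-18363563, minus strand), stood at 130.2, 108.3 and 119.0 CPM in the control and at 102.0, 107.4 and 111.8 CPM in the siDDX5 libraries, with overlap. Its log2 fold change was -0.16 (edgeR, standard error 0.11, adjusted p = 0.624). By TPM there was 30.5, 30.4 and 28.8 times as much SHMT2 as SHMT1 in the control libraries and 27.4, 27.9 and 27.1 times as much in the siDDX5 libraries, a small difference with no overlap and no test.

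The level of SHMT2 was high in a stretch of chromosome 12 where many genes were high. Of the 32 protein-coding genes that lie wholly or partly within 1 Mb after it, 19 (59.4%) had a control mean of at least 100 TPM and 5 (15.62%) of at least 1000 TPM, with a median of 208 TPM. Of the 35 that lie wholly or partly within 1 Mb before it, 6 (17.1%) and 1 (2.86%) reached these levels, with a median of 31.9 TPM. Among all 19948 protein-coding genes the shares were 8.2% and 0.56% and the median 6.77 TPM. The 5 highest after SHMT2 were CDK4, a cell cycle kinase, at 10800 ± 1280 TPM, OS9 at 3400 ± 482 TPM, STAC3 at 3140 ± 374 TPM, MARS at 1340 ± 115 TPM and CTDSP2 at 1110 ± 115 TPM (SD, n = 3 each). Of these 5, only CTDSP2 had groups that did not overlap in CPM. Copy number was not measured here, and its part in these levels was not tested.

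**Figure D4:**
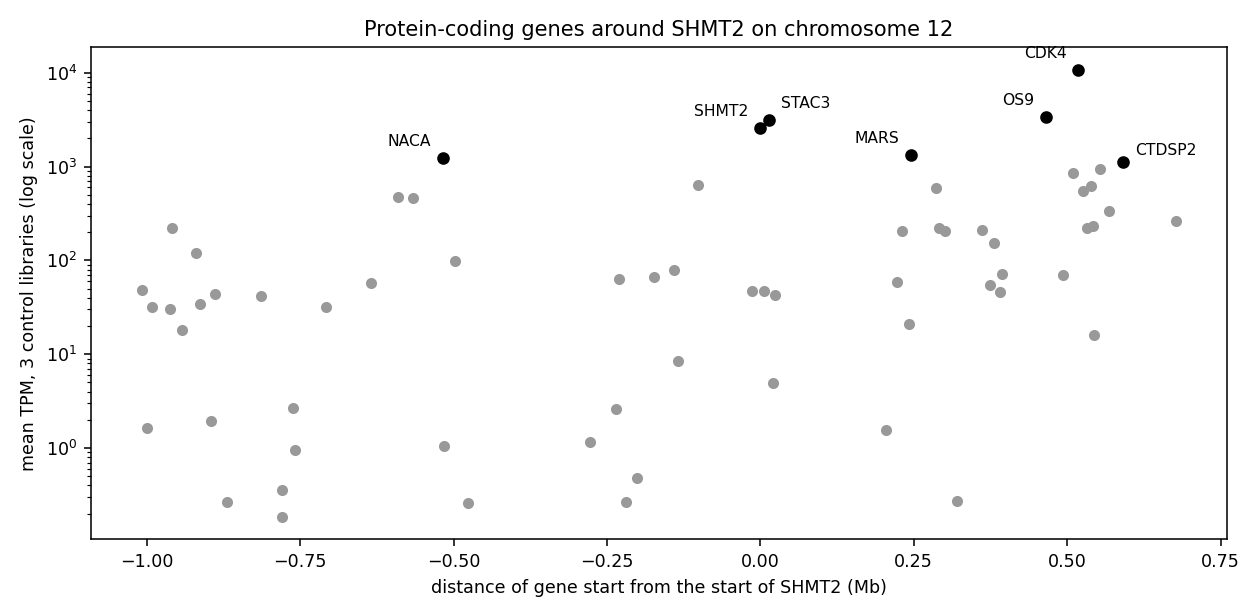
Mean TPM over the 3 control libraries (vertical log axis) of protein-coding genes by the distance of their start from that of SHMT2 (horizontal axis, Mb). Genes after SHMT2 have a median of 208 TPM and genes before it of 31.9 TPM.

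MTHFD2 was the only one of the 9 genes with an unadjusted p under 0.05, and it did not pass after adjustment. MTHFD2, the mitochondrial dehydrogenase and cyclohydrolase (chr2:74198562-74217565, plus strand), stood at 193.6, 186.5 and 187.5 CPM in the control and at 211.3, 232.3 and 222.7 CPM in the siDDX5 libraries. All siDDX5 values lay above all control values, by a margin wider than the control spread. The means were 189.2 ± 3.88 and 222.1 ± 10.5 CPM (SD, n = 3 each), which is a log2 fold change of 0.23 with a standard error of 0.095. The unadjusted p of edgeR was 0.0366 and the adjusted p 0.405. MTHFD1, the cytosolic enzyme of the same reactions and of formate use (chr14:64388031-64463457, plus strand), stood at 384.4, 375.1 and 327.3 CPM against 341.6, 349.0 and 305.4 CPM, with overlap. Its log2 fold change was -0.13 (edgeR, standard error 0.11, adjusted p = 0.712). The ratio of MTHFD1 to MTHFD2 in TPM was 1.06, 1.10 and 0.995 in the control and 0.911, 0.902 and 0.791 in the siDDX5 libraries, so it lay lower in the knockdown without overlap. That ratio has no test.

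Read as a set, the genes other than SFXN1 were near the rest of the transcriptome. Of all 15223 genes tested, 25 passed (0.164%), of which 8 (0.0526%) were higher and 17 (0.112%) lower in the siDDX5 libraries, and all 10 members passed the filter on low counts and were among those tested. None of the 9 passed. A block for the replicate number raised the number of genes called to 394 (2.59%), 1.14% higher and 1.45% lower, and again none of the 9 was among them. At an unadjusted p under 0.05 in edgeR, 1 of the 9 (MTHFD2) stood against 11.4% of all genes, and with the block the same gene against 20.5%. The groups did not overlap for 18% of all genes, higher for 8.87% and lower for 9.16%. Among the 9 this was 1 higher, MTHFD2, and 1 lower, PSAT1. Their median log2 fold change was -0.10, against -0.002 for all genes, and their range was -0.21 to 0.23.

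By TPM, which allows genes to be compared, the order in the control was SHMT2, PHGDH, MTHFD1, MTHFD2, SHMT1, SFXN1, PSAT1, PSPH, SFXN3 and SFXN2. This order is of gene sums, which include transcripts not annotated as coding. For PHGDH, the non-coding models ENST00000462324.2 and ENST00000641927.1 averaged 62.1 and 36.7 TPM in the control. Its leading coding models, ENST00000369409.9 and ENST00000641023.1, averaged 27.9 and 22.6 TPM there, against 62.0 TPM for the PSAT1 coding model ENST00000376588.4. The means ran from 2590 ± 280 TPM for SHMT2 over 217 ± 19.2, 204 ± 15.6 and 194 ± 6.9 TPM for PHGDH, MTHFD1 and MTHFD2 to 17.0 ± 3.9 TPM for SFXN2. PHGDH overlapped with MTHFD1, MTHFD1 with MTHFD2, SFXN1 with PSAT1 and PSPH with SFXN3, so these neighbours did not differ beyond their spread. In the siDDX5 libraries SFXN1 had moved from rank 6 to rank 5, above SHMT1, with 109 ± 4.82 TPM against 76.1 ± 3.67 TPM and no overlap. MTHFD2 stood at rank 2 there, with 214 ± 7.22 TPM, but overlapped with PHGDH at 205 ± 16.3 TPM. SFXN2 was lowest in both groups.

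A second readout, the use of each gene's transcripts, was tested for the genes with more than one transcript past the filter. It was called for 172 of 10704 genes (1.61%) by diffSpliceDGE in edgeR. SHMT2 was the only one of the 9 called, with an adjusted p of 0.00735, and 0.000404 with the replicate block, under which 1.21% of genes were called. The transcript behind the call was ENST00000555116.5, a model of 1885 bases annotated for nonsense-mediated decay. Its estimated counts were 45.1, 0.2 and 0 in the control and 123.2, 149.3 and 148.6 in the siDDX5 libraries. It held only 0.0166% ± 0.0283 of the SHMT2 counts in the control and 0.267% ± 0.0229 in the siDDX5 libraries. This model reached the filter on low counts through the siDDX5 libraries, where it was high. The call is therefore a description, and its p-values are no support for a difference. The part of the division of reads in it was not tested. The leading transcript ENST00000328923.8 held 74.4% ± 1.81 and 76.9% ± 2.4 of the counts, and its TPM overlapped between groups. The call was lost without control replicate 3, without siDDX5 replicate 3, and when transcripts were required to have a mean of at least 50 counts.

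The leading transcripts of PSAT1, SHMT1 and MTHFD2 held shares of the counts that overlapped between groups. PSAT1 was nearly all one model, ENST00000376588.4, with 97.7% ± 0.37 of the counts in the control and 97.3% ± 0.839 in the siDDX5 libraries. The SHMT1 model ENST00000316694.8 held 70.3% ± 2.25 and 70.9% ± 1.76. For MTHFD2 the coding transcript ENST00000394053.7 held 51.1% ± 1.97 and 50.9% ± 2.35 of the counts, and ENST00000470592.5, annotated for nonsense-mediated decay, held 38.4% ± 2.24 and 34.3% ± 3.59. That second model was the larger of the pair by TPM, at 119, 117 and 108 in the control and 133, 101 and 115 in the siDDX5 libraries. The SFXN2 model ENST00000459894.6 held 8.58% ± 0.915 of the counts in the control and 16% ± 2.3 in the siDDX5 libraries with no overlap. The PSPH model ENST00000275605.8 held 5.15% ± 6.99 and 22.6% ± 5.56, also with no overlap. Another coding model of PSPH, ENST00000395471.7, has 8 exons like ENST00000275605.8 and spans nearly the same stretch. It went the other way, at 48.5% ± 4.73 and 35.8% ± 8.14, with overlap. In SFXN2, ENST00000480358.6 spans nearly the same stretch as ENST00000459894.6. It held 7.38% ± 7.66 and 6.28% ± 2.68, with overlap. The part of the division of reads between such models was not tested. The test of transcript use called neither SFXN2 nor PSPH. Taken one by one, no transcript of any gene was called among 61666 tested by edgeR's quasi-likelihood test (0%), 4367 (7.08%) had an unadjusted p under 0.05, and DESeq2 called 827.

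The wider pathway was listed by role, with 52 further genes, of which 49 were tested. None passed (0 of 49, against 0.164% of all genes), 4 had an unadjusted p under 0.05 (against 11.4% of all genes), and DESeq2 called 1. The median log2 fold change was -0.02 and the range -0.68 to 0.37. The groups did not overlap for 4 genes that lay higher (GGH, GCSH, DLD and SRR) and 3 that lay lower (SLC38A1 and PAICS among them), where 8.87% and 9.16% of all genes did so, so these counts are near the background. DMGDH, BHMT and CBS did not reach the filter on low counts, and CBS has a near-identical copy, CBSL, with which it shares reads.

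SLC38A1, a plasma membrane carrier of neutral amino acids including glutamine and serine, had the largest log2 fold change of the 49 genes. It stood at 55.6, 77.12 and 84.71 CPM in the control and at 43.51, 46.24 and 45.93 CPM in the siDDX5 libraries. The siDDX5 values lay close together and below a wide control range, of which control replicate 1 was the low end. The log2 fold change came to -0.68, with a standard error of 0.15. Its unadjusted p in edgeR was 0.00127 and its adjusted p 0.121. With the replicate block it was -0.66 (edgeR, adjusted p = 0.0183), so its call depends on that term and on the tool. It was also called by DESeq2 (adjusted p = 0.00472) and by edgeR without the filter on low counts (adjusted p = 0.0372). The other 4 serine carriers, SLC1A4, SLC1A5, SLC38A2 and SLC38A5, had log2 fold changes of -0.16, 0.10, 0.08 and -0.35, and none passed.

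In mitochondria, the folate genes beside MTHFD2 did not pass the test. SLC25A32, the folate carrier of the inner membrane, was at 33.64, 35.16 and 29.9 CPM in the control and at 39.85, 43.37 and 34.38 CPM in the siDDX5 libraries, a log2 fold change of 0.25 (edgeR, adjusted p = 0.493). MTHFD1L, which makes the formate that is exported, had a log2 fold change of 0.10 and ALDH1L2, which oxidises the carbon unit to carbon dioxide, 0.08. In the glycine cleavage system, GCSH, the lipoyl carrier protein, stood at 27.53, 29.75 and 23.1 CPM against 30.87, 41.26 and 31.46 CPM, with a log2 fold change of 0.37 (edgeR, adjusted p = 0.414). DLD, the dehydrogenase that it shares with pyruvate dehydrogenase, stood at 104.2, 99.37 and 105.2 CPM against 124.1, 130.6 and 125.1 CPM, with a log2 fold change of 0.30 (edgeR, adjusted p = 0.28). Both lay higher without overlap, while GLDC, the decarboxylase that starts glycine cleavage, averaged only 1.498 CPM in the control and AMT 2.88 CPM.

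In the cytosol, TYMS, which makes thymidylate, overlapped between groups. It averaged 274.0 ± 32.9 CPM in the control and 270.0 ± 12.6 CPM in the siDDX5 libraries. None of the 11 cytosolic folate genes passed, and their log2 fold changes ran from -0.23 to 0.17. None of the 6 purine synthesis genes passed, with a range of -0.19 to 0.17, and none of the 7 tested genes of the methionine cycle and transsulfuration, with a range of -0.30 to 0.35. MTR, methionine synthase, stood at 186.3, 168.0 and 217.6 CPM against 166.4, 123.8 and 176.0 CPM, with overlap (edgeR, log2 fold change -0.30, adjusted p = 0.505). SRR, which converts serine to its mirror form, lay higher without overlap, at 25.62, 25.07 and 21.57 CPM against 30.27, 31.73 and 28.88 CPM (edgeR, log2 fold change 0.33, adjusted p = 0.343). ATF4, a transcription factor known to drive serine synthesis genes under amino acid shortage, stood at 215.8, 240.3 and 182.2 CPM against 222.8, 328.4 and 215.7 CPM, with overlap (edgeR, log2 fold change 0.27, adjusted p = 0.598).

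**Figure D5:**
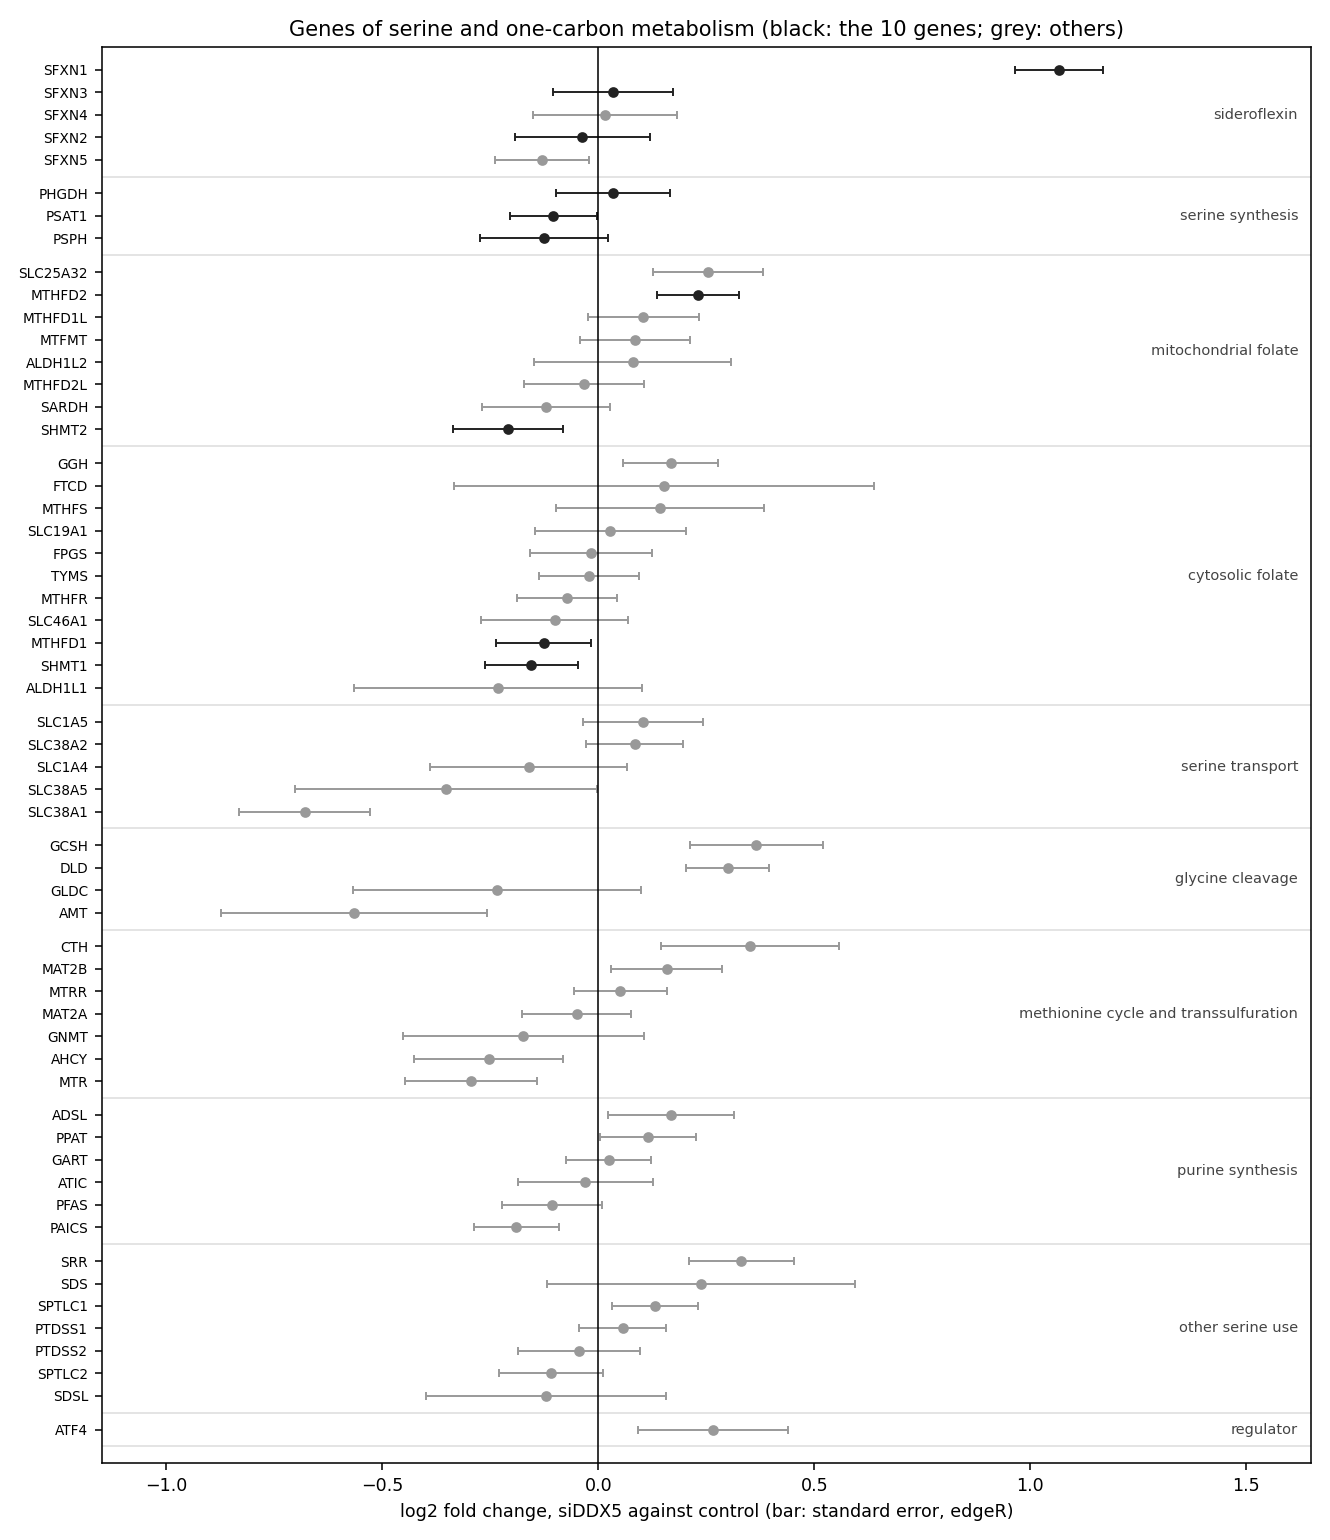
Log2 fold change of siDDX5 against control (horizontal axis, bars are the standard error from edgeR) for the 10 genes (black) and other tested genes of the pathway (grey), grouped by role. SFXN1 stands alone at 1.07, and the other genes shown lie between -0.68 (SLC38A1) and 0.37 (GCSH).

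The genes most like SFXN1 over the 6 libraries were not in this pathway. Likeness was the root mean square difference of log2 CPM, each gene centred on its own mean, among the 10993 other genes that averaged 5 CPM or more. This distance contains the group difference for which SFXN1 was picked, so genes with a difference of like size come first. The ranking is therefore a description. The nearest was PGM2L1, a synthase of glucose bisphosphate, at a distance of 0.0471. It stood at 72.68, 77.3 and 83.31 CPM in the control and at 160.7, 173 and 166.7 CPM in the siDDX5 libraries. TEF, a transcription factor of the PAR bZIP family, followed at 0.121 and SCML2, a Polycomb protein, at 0.122. Of the 9 genes, MTHFD2 was the nearest, at rank 903 and a distance of 0.419, and SHMT2 the farthest, at rank 8517 and 0.644. In their 3′ UTR, PGM2L1 had 2 copies of ACTTGAA and SCML2 had 1, and TEF had none of the words searched. Among all 12839 genes examined, 16.37% had a shorter word without TACTTGAA. The 3′ UTR was 6334 bases long in PGM2L1 and 1937 in SCML2, against a median of 989 for all. PGM2L1, TEF and SCML2 were reached through the difference of SFXN1, so their matches add no support. The part of these matches was not tested.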

How the data were processed

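The library kit, per the labels, was TruSeq stranded mRNA. Per the submitters' processing notes the tools were bcl2fastq 2.20, FastQC 0.11.8, cutadapt 1.11 and kallisto 0.46.0, with GRCh38. The annotation release is not given in the sources used here. The authors deposited, per library, estimated counts and TPM values of 188753 transcripts, with reads shared between transcripts divided by their quantifier.

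Transcripts were joined to GENCODE 29 genes by identifier (169797), symbol (15315) or position (890), and 2751 were left out, so 99.59% to 99.63% of the counts were joined. Estimated counts were summed per gene, rounded, filtered with filterByExpr, scaled by TMM and tested with edgeR 4.0.16 (glmQLFTest, R 4.3.3), Benjamini-Hochberg adjusted over all genes, at a threshold of 0.05. The standard error is the log2 fold change over the square root of F. Transcript use was tested with diffSpliceDGE. SD and standard error omit the uncertainty of dividing reads. The tests were also run on simulated counts with planted changes larger than those of the members other than SFXN1. That run therefore does not show whether differences as small as theirs could be called.

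Same-numbered libraries deviated together (correlations 0.19, 0.25 and 0.54 for replicates 1, 2 and 3 over 15223 genes), and the numbers come from the titles. The block is therefore given where it changes a call. The alternatives were DESeq2 1.42.0 (size factors, Wald test), other filters, length-scaled TPM, limma 3.58.1 on log2(TPM + 1) and log2(TPM + 0.1), the primary-assembly join and leaving out each library.

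The 10 genes, the pathway list, the markers and the word search were chosen with earlier results of these data known. Named by rule were the 10 genes, DDX5, pathway genes called with or without the block, the 3 genes nearest to SFXN1 and transcripts with at least 10% of a gene's TPM. Other names were chosen after their values were seen. Some pathway genes and sequence matches are not reported here.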

Additional observations from a re-analysis of the deposited data

How the results depend on the processing

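None of the 9 genes other than SFXN1 passed the test under any of 15 alternatives, and no test result is given for SFXN1. The number of genes called, 25, was 323 by the Wald test of DESeq2, 136 with no filter, 2 on length-scaled TPM, 1 with limma on log2(TPM + 1), 1 with limma on log2(TPM + 0.1) and 394 with the replicate block. It ranged from 0 to 15 with a library left out, and was 0 without control replicate 1 and 0 without siDDX5 replicate 1 (1245 to 2042 genes at an unadjusted p under 0.05, edgeR). The number of pathway genes called, 0, was 1 with DESeq2, 1 with no filter and 1 with the replicate block, SLC38A1 each time, and 0 to 0 with a library left out. The number of genes with changed transcript use, 172, was 395 with no filter, 41 with a mean of at least 50 counts, and 219 to 455 with a library left out. The number of members with changed transcript use, 1, was 0 at a mean of at least 50 counts and 0 to 2 with a library left out. The number of transcripts called, 0, was 827 with DESeq2, 9 with limma on log2(TPM + 1) and 2 with log2(TPM + 0.1). The log2 fold change of SFXN1, 1.07, was 0.68 on length-scaled TPM, 0.62 and 0.63 with limma on log2(TPM + 1) and log2(TPM + 0.1), and 1.02 to 1.12 with a library left out. That of DDX5, -1.44, missed the threshold on length-scaled TPM (-1.37) and in limma (-1.44 and -1.45 at the larger and the smaller pseudocount), and was -1.54 to -1.30 with a library left out. The log2 fold change turned sign for SFXN2 on length-scaled TPM (0.092), in limma (0.066 and 0.07) and without control replicate 1 (0.015), control replicate 2 (0.064) or siDDX5 replicate 3 (0.055), with a range of -0.169 to 0.064 over the libraries left out. It turned for SFXN3 on length-scaled TPM (-0.081), in limma (-0.115 and -0.117) and without the same libraries (-0.022, -0.018 and -0.049), with a range of -0.049 to 0.158. It turned for PHGDH on length-scaled TPM (-0.034), in limma (-0.082 and -0.082), without control replicate 2 (-0.055) and without siDDX5 replicate 2 (-0.028), with a range of -0.055 to 0.131. The cause of these differences was not tested. The 9 genes had log2 standard errors of 0.095 to 0.16, and MTHFD2 did not pass at a log2 fold change of 0.23. Whether differences of that size could be called at this number of libraries was not tested. A gene that did not pass is therefore not shown to be unchanged.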
